A study of Mus musculus with 11 samples.

Results

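The genes described here are 38 genes listed by symbol that are known as interferon-stimulated genes. Of these, 37 were rows of the deposited count table of 22609 genes. Ifi27 was not a row and was dropped. All 37 had at least 10 reads over the 11 libraries and were among the 17557 genes tested, so no member was lost to the filter on low counts. The list is defined by gene symbol and not by the values of these libraries.

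Interferons are secreted proteins that cells release when they sense foreign or misplaced nucleic acid. They bind receptors that signal through the kinases JAK1 and TYK2 to a complex that holds STAT2 and IRF9, and this complex binds the interferon-stimulated response element, a pair of GAAA repeats in the promoters of target genes. The induced proteins block viral entry, translation and replication, and some of them, such as IRF7, STAT2 and the nucleic acid sensors, feed back on the same pathway. In brain tissue microglia, endothelial cells and astrocytes all express such genes at rest.

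Bulk polyadenylated RNA was sequenced from tissue labelled as cerebellar hemisphere of untreated mouse littermates, with 3 Control libraries, 3 NFKO, 2 AnkGKO and 3 DKO. NFKO mice carried Pcp2-Cre with floxed Nfasc alleles (NfascFx/Fx), AnkGKO mice Pcp2-Cre with floxed alleles of Ank3 (AnkGFx/Fx), which encodes Ankyrin G, and DKO mice Pcp2-Cre with both floxed pairs. Control mice had floxed alleles without Cre by the design text and the methods, while the results text of the study writes the control genotype with Pcp2-Cre. The study describes Pcp2-Cre as active mainly in Purkinje cells, so the deletion was aimed mainly at that cell type. The RNA came from the whole tissue. The labels name a C57BL/6J and also a mixed C57BL/6J;129 background, an age of postnatal day 30 and also 32, and mixed sex without the sex of each mouse. AnkGKO has fewer libraries here than the study describes, and any further library was not analysed here. All libraries carry the same batch label. Each library is named as a biological replicate, and in bulk tissue fewer cells of a type and less RNA per cell cannot be told apart.

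Library totals ranged from 38890851 to 55822361 reads on genes, and levels are given as CPM, that is, counts scaled to an equal library total. A floor of 3 reads equals between 0.0546 and 0.0780 CPM, depending on the library. The NFKO totals, 50126172 to 53758610, were above those of Control, 38890851 to 48540837. This floor covers counting error only. CPM values were scaled by edgeR's TMM method. Ank3 had a log2 fold change of -1.03 in AnkGKO and -1.07 in DKO against Control (edgeR adjusted p = 0.00108 and 0.000461). Nfasc had a log2 fold change of -0.08 in NFKO (edgeR adjusted p = 0.969), so its whole-gene count does not check the label of the NFKO libraries. Pcp2, a gene of Purkinje cells, measured 26.3, 1.43 and 0.167 CPM in the Control libraries, 28.3, 2.14 and 0.0929 CPM in NFKO, and no more than 0.374 CPM in AnkGKO and DKO. Whole-tissue Ank3 was thus lower in libraries with little Pcp2, and the cell types in which the deletion took place were not tested. Summed caudal Hox genes, which mark spinal cord and caudal hindbrain, lay between 395 and 615 CPM in every library, so the defining markers did not bear out the labelled tissue in most libraries. Xist, which is expressed from the inactive X chromosome of female cells, was at 464, 598 and 0.429 CPM in Control, between 0.344 and 1.39 CPM in all NFKO and AnkGKO libraries, and at 28.4, 459 and 470 CPM in DKO. Sex therefore moved with the groups, and only Control 3 had a low Xist value outside the single knockouts.

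The interferon-stimulated genes were expressed at low to moderate levels. Mean CPM over the 11 libraries ranged from 0.162 for Oas3 to 44.9 for Cmpk2. Per kilobase of exon, the highest mean levels were those of Ifitm3 at 10.5 and Cmpk2 at 10.4 CPM per kb, and the lowest was that of Oas3 at 0.0230 CPM per kb. In Control 3 only 1 read fell on Oas3.

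Promoter sequence is shown for the 4 members called by edgeR in any comparison and for further members with a match near the start site, because the response element is the letter pattern that interferon signalling is known to use. In GRCm39 with GENCODE vM39 transcripts, 36 of the 37 members were found by symbol, and Ddx58 was not found under this symbol. In the 250 bases upstream of the canonical start site, the pattern GAAANNGAAA on either strand was found in 12 of 36 members (33.3%) and in 493 of 16020 protein-coding genes tested (3.08%). The gamma-activated site pattern TTCNNNGAA, searched the same way, was found in 5 of 36 members (13.9%) and in 6.70% of the same 16020 genes. The patterns can overlap, since both contain GAA. The 12 members with the response element pattern were Stat2, Ifit1, Ifit3, Isg15, Usp18, Oas2, Oas3, Zbp1, Bst2, Rtp4, Rsad2 and Trim30a. A match describes letters in this window and not a bound site.

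The sequences are written 5′ to 3′ in the direction of the gene, end at the last base before the start site, and carry in capitals every match to GAAANNGAAA or to its reverse complement. The first 6 are 120 bases long and stand for members with a match close to the start site. They are Isg15 (chr4:156285304-156285423, minus strand), Usp18 (chr6:121222737-121222856, plus strand), Ifit1 (chr19:34618151-34618270, plus strand), Ifit3 (chr19:34560779-34560898, plus strand), Oas2 (chr5:120887934-120888053, minus strand) and Rtp4 (chr16:23428526-23428645, plus strand). The match nearest to the start site lay 29 bases from it in Isg15, 10 bases in Rtp4 and 83 bases in Ifit3, counted from the end of the match. The Ifit3 window begins inside a further match, of which only the last letters are shown.
Isg15: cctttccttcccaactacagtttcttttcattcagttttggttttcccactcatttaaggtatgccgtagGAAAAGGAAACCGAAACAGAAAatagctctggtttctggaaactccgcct
Usp18: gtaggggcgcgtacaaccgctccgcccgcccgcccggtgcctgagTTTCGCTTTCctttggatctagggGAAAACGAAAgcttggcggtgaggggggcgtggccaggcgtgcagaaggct
Ifit1: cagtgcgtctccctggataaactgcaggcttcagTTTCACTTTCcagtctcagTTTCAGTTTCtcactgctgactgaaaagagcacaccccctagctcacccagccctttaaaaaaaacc
Ifit3: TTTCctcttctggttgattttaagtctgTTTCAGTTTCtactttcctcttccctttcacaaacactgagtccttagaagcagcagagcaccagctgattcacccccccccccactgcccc
Oas2: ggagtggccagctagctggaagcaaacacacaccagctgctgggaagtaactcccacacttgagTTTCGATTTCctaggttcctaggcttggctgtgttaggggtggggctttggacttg
Rtp4: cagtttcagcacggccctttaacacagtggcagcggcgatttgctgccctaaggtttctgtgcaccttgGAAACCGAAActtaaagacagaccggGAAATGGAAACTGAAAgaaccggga

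Bst2 is given over 250 bases (chr8:71990115-71990364, minus strand), because its matches lie farther from the start site, at 117 bases. Herc6 (chr6:57557812-57557931, plus strand) and Aim2 (chr1:173282800-173282919, plus strand) are given over 120 bases as called members that held no match in the full window.
Bst2: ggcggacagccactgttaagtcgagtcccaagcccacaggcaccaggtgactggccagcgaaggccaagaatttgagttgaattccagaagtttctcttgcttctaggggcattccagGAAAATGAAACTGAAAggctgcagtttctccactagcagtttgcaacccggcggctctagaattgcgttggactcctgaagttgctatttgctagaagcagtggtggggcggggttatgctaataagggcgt
Herc6: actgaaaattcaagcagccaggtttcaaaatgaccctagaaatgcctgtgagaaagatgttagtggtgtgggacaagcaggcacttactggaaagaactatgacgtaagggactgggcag
Aim2: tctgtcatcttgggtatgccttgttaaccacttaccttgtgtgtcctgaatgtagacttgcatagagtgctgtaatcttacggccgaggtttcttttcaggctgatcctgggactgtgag

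Among the transcription factors of the interferon pathway, Stat2 had the highest level. Irf7, the factor that amplifies type I interferon production, was at 2.703, 2.38 and 2.52 CPM in Control, 3.77, 3.78 and 3.16 CPM in NFKO, 3.98 and 4.06 CPM in AnkGKO, and 2.22, 3.36 and 3.15 CPM in DKO. Every NFKO and AnkGKO library was above every Control library, and DKO overlapped Control. Stat2, a subunit of the complex that binds the response element, was at 40.8, 34.5 and 27.9 CPM in Control, 44.3, 42.7 and 37.5 CPM in NFKO, 32.1 and 32.4 CPM in AnkGKO, and 28.7, 33.4 and 27.8 CPM in DKO. The Control values overlapped those of all other groups. Irf9, which binds DNA in the same complex, ranged from 10.3 to 15.6 CPM over all libraries.

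IFIT proteins bind viral RNA and hold back its translation. Ifit3 (chr19:34560899-34566443) was at 4.71, 5.96 and 3.81 CPM in Control, 9.45, 8.99 and 7.82 CPM in NFKO, 11.4 and 7.30 CPM in AnkGKO, and 6.21, 5.44 and 5.02 CPM in DKO. Both single knockouts lay above all Control and all DKO libraries. Of its 50-base words, 31.7% also occur in other genes, first Ifit3b. Reads on these words may be missing from a count of uniquely placed reads. Ifit2 was at 14.9, 17.6 and 17.7 CPM in Control, 19.95, 22.6 and 17.7 CPM in NFKO, 20.8 and 18.6 CPM in AnkGKO, and 24.6, 18.5 and 19.4 CPM in DKO. It thus had its highest value in a DKO library, unlike Ifit3. Ifit1 ranged from 2.44 to 7.90 CPM, with the highest value in AnkGKO 1.

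ISG15 is a ubiquitin-like protein that is attached to other proteins, HERC6 is its main ligase in mice, and USP18 removes it again and dampens receptor signalling. Isg15 (chr4:156283883-156285303) was at 1.53, 1.23 and 1.5 CPM in Control, 2.58, 2.29 and 1.93 CPM in NFKO, 2.703 and 2.37 CPM in AnkGKO, and 1.24, 1.75 and 1.07 CPM in DKO. Herc6 (chr6:57557932-57642597) was at 4.19, 4.79 and 3.86 CPM in Control, 4.19, 5.09 and 4.92 CPM in NFKO, 7.90 and 9.08 CPM in AnkGKO, and 4.11, 4.39 and 4.17 CPM in DKO. Isg15 was thus high in both single knockouts, whereas Herc6 was high in the AnkGKO libraries and lay at Control levels in the other groups. Usp18 averaged 1.08 ± 0.0165 CPM over the 3 Control libraries and 1.003 ± 0.289 CPM over the 3 DKO libraries (mean ± SD). In the single knockouts it averaged 1.67 ± 0.259 CPM (NFKO, n = 3) and 1.90 ± 0.0803 CPM (AnkGKO, n = 2). It followed the order of Isg15. Shared 50-base words made up 23.9% of Isg15 and 13.9% of Herc6.

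Oligoadenylate synthetases make the second messenger that activates RNase L, an enzyme that degrades RNA. Oas2 was at 0.520, 0.745 and 0.286 CPM in Control, 1.49, 1.14 and 1.21 CPM in NFKO, 0.784 and 0.435 CPM in AnkGKO, and 0.397, 0.794 and 0.218 CPM in DKO. Oas3 was at 0.0780, 0.121 and 0.0238 CPM in Control, 0.287, 0.366 and 0.297 CPM in NFKO, 0.144 and 0.0435 CPM in AnkGKO, and 0.117, 0.164 and 0.146 CPM in DKO. Both had their highest values in the NFKO libraries without overlap with any other group, and Oas3 lay near the floor of 3 reads in Control. Oasl2, the most abundant member of the family, was at 4.68, 5.19 and 2.67 CPM in Control, 8.26, 8.80 and 5.74 CPM in NFKO, 5.96 and 8.34 CPM in AnkGKO, and 3.43, 6.98 and 2.79 CPM in DKO. Oas1a ranged from 0.182 to 0.732 CPM.

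Of the 4 genes in the group of RNA sensors and PKR, 3 lay above Control in both AnkGKO libraries and 1 below. These stand beside 11.7% and 12.3% of all genes tested. In NFKO 1 and in DKO 2 of the 4 lay above Control without overlap, beside 7.42% and 7.65% of all genes. Ddx58, which encodes the RNA helicase RIG-I, was at 7.31, 7.45 and 7.38 CPM in Control, 9.35, 11.9 and 8.83 CPM in NFKO, 9.26 and 8.23 CPM in AnkGKO, and 8.96, 8.06 and 7.54 CPM in DKO. The 3 Control libraries were close to each other and below all 8 others. Eif2ak2, which encodes the kinase PKR that stops translation on double-stranded RNA, was at 10.8, 15.8 and 13.6 CPM in Control, 17.9, 14.95 and 12.7 CPM in NFKO, 17.8 and 21.0 CPM in AnkGKO, and 21.6, 17.5 and 19.0 CPM in DKO. The AnkGKO and DKO libraries were all above Control, and NFKO 1 lay within their range. Ifih1, the helicase MDA5, ranged from 4.46 to 6.95 CPM and Dhx58, a regulator of both helicases, from 1.96 to 3.25 CPM.

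Aim2 (chr1:173178445-173293930) encodes a sensor of DNA in the cytosol that assembles an inflammasome. It was at 1.53, 1.67 and 1.24 CPM in Control, 3.00, 2.68 and 3.59 CPM in NFKO, 1.94 and 1.76 CPM in AnkGKO, and 2.38, 2.80 and 2.77 CPM in DKO. The groups that share the Nfasc-targeted genotype, NFKO and DKO, were above all AnkGKO and Control libraries. Aim2 lies 40.5 Mb from Nfasc on the same chromosome, and a part of linkage in its level was not tested. It also overlaps Cadm3 on the genome. Zbp1, a sensor of Z-form nucleic acid, ranged from 0.130 to 0.478 CPM.

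For all 4 proteins that act at membranes or are secreted, the NFKO libraries lay above the Control libraries without overlap. Such a separation was found for 7.42% of all genes tested. Bst2 (chr8:71986895-71990114), which encodes tetherin, a protein that holds budding virus on the cell, was at 2.34, 2.56 and 2.29 CPM in Control, 4.90, 6.01 and 3.94 CPM in NFKO, 3.71 and 5.19 CPM in AnkGKO, and 2.96, 3.97 and 3.60 CPM in DKO. All 8 knockout libraries were above the Control libraries, and no 50-base word of Bst2 was shared with another gene. Ifitm3, which blocks viral entry from endosomes, was at 10.1, 12.8 and 11.1 CPM in Control, 16.6, 21.6 and 16.4 CPM in NFKO, 14.7 and 11.5 CPM in AnkGKO, and 10.2, 13.4 and 10.1 CPM in DKO, with the NFKO libraries above all others. Shared words made up 51.0% of Ifitm3 and 27.0% of Rtp4, so their counts are uncertain where reads could be placed on copies. Rtp4, a chaperone of membrane receptors, was at 2.65, 3.12 and 2.24 CPM in Control, 3.88, 5.39 and 3.34 CPM in NFKO, 3.51 and 3.58 CPM in AnkGKO, and 2.43, 3.199 and 2.80 CPM in DKO. Lgals3bp, a secreted glycoprotein that binds galectins, was at 20.9, 23.8 and 21.9 CPM in Control, 26.2, 29.9 and 25.5 CPM in NFKO, 27.4 and 38.8 CPM in AnkGKO, and 26.9, 29.3 and 27.6 CPM in DKO. For Lgals3bp no knockout library overlapped Control.

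**Figure D1:**
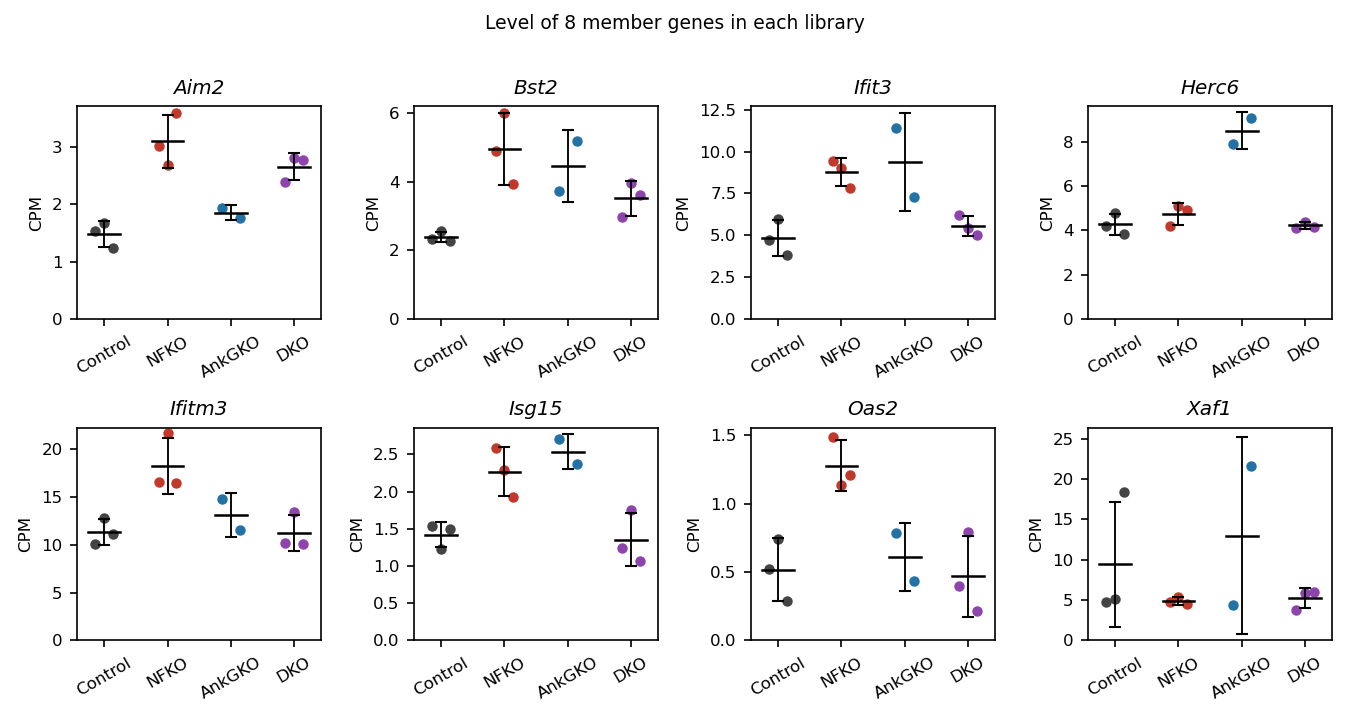
CPM (vertical axis, starting at 0) of 8 member genes in each library, with points for libraries, a line for the group mean and bars for the SD (n = 3, 3, 2 and 3). Aim2 was high in NFKO and DKO, Herc6 in AnkGKO, Ifit3 and Isg15 in both single knockouts, and Xaf1 in 1 Control and 1 AnkGKO library.

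PARP9 and PARP14 modify proteins with ADP-ribose, and DTX3L is the ubiquitin ligase that acts together with PARP9. Parp9 was at 4.03, 4.69 and 3.62 CPM in Control, 5.32, 5.64 and 5.82 CPM in NFKO, 6.03 and 5.15 CPM in AnkGKO, and 4.27, 4.997 and 4.44 CPM in DKO. Parp14 was at 4.39, 6.32 and 4.999 CPM in Control, 8.90, 9.69 and 5.96 CPM in NFKO, 7.55 and 5.82 CPM in AnkGKO, and 6.21, 6.12 and 4.37 CPM in DKO. Dtx3l was at 7.49, 8.21 and 8.52 CPM in Control, 10.6, 10.8 and 7.82 CPM in NFKO, 7.43 and 9.17 CPM in AnkGKO, and 7.49, 7.33 and 8.66 CPM in DKO. Of the 3 genes, Parp9 alone separated NFKO from Control in every library. Parp9 and Dtx3l overlap on the genome and the stranded kit was given without the strand setting of the count, so their reads may not be fully separated.

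Among the dynamin-like GTPases, which act against incoming viruses, Mx1 was at 0.156, 0.121 and 0.214 CPM in Control, 0.306, 0.366 and 0.353 CPM in NFKO, 0.392 and 0.304 CPM in AnkGKO, and 0.420, 0.0934 and 0.182 CPM in DKO. Both single knockouts lay above Control without overlap, with log2 fold changes of 1.06 (SE 0.50, edgeR adjusted p = 0.666) and 1.09 (SE 0.55, edgeR adjusted p = 0.948). Gbp2 was at 3.35, 4.93 and 3.81 CPM in Control and at 6.22, 10.3 and 5.18 CPM in NFKO, again without overlap, while its AnkGKO libraries at 6.15 and 3.61 CPM overlapped Control. Gbp3, the most abundant of the 4 members in this group, was at 6.16, 7.39 and 7.31 CPM in Control, 7.77, 7.72 and 6.60 CPM in NFKO, 6.87 and 8.39 CPM in AnkGKO, and 6.23, 6.66 and 8.21 CPM in DKO. Cmpk2, a mitochondrial nucleotide kinase and the most abundant member, was at 44.7, 43.5 and 48.1 CPM in Control, 45.03, 43.8 and 43.4 CPM in NFKO, 47.0 and 48.1 CPM in AnkGKO, and 43.0, 42.2 and 45.2 CPM in DKO, with overlap between all groups but AnkGKO against NFKO and DKO. Xaf1, an interferon-induced protein linked to apoptosis, was at 4.81, 5.13 and 18.4 CPM in Control, 4.82, 5.43 and 4.48 CPM in NFKO, 4.33 and 21.6 CPM in AnkGKO, and 3.83, 5.84 and 6.02 CPM in DKO. Control 3 and AnkGKO 2 stood apart from the 9 other libraries for this gene. Trim30a was at 2.703, 3.58 and 3.83 CPM in Control and at 5.76 and 5.06 CPM in AnkGKO, without overlap (log2 fold change 0.68, edgeR adjusted p = 0.377). Mx2, Rsad2, Ifi35, Ifi44 and Samd9l had mean levels between 1.81 and 6.58 CPM. Mx1, Gbp2 and Trim30a were given in these sentences after their values were seen.

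**Figure D2:**
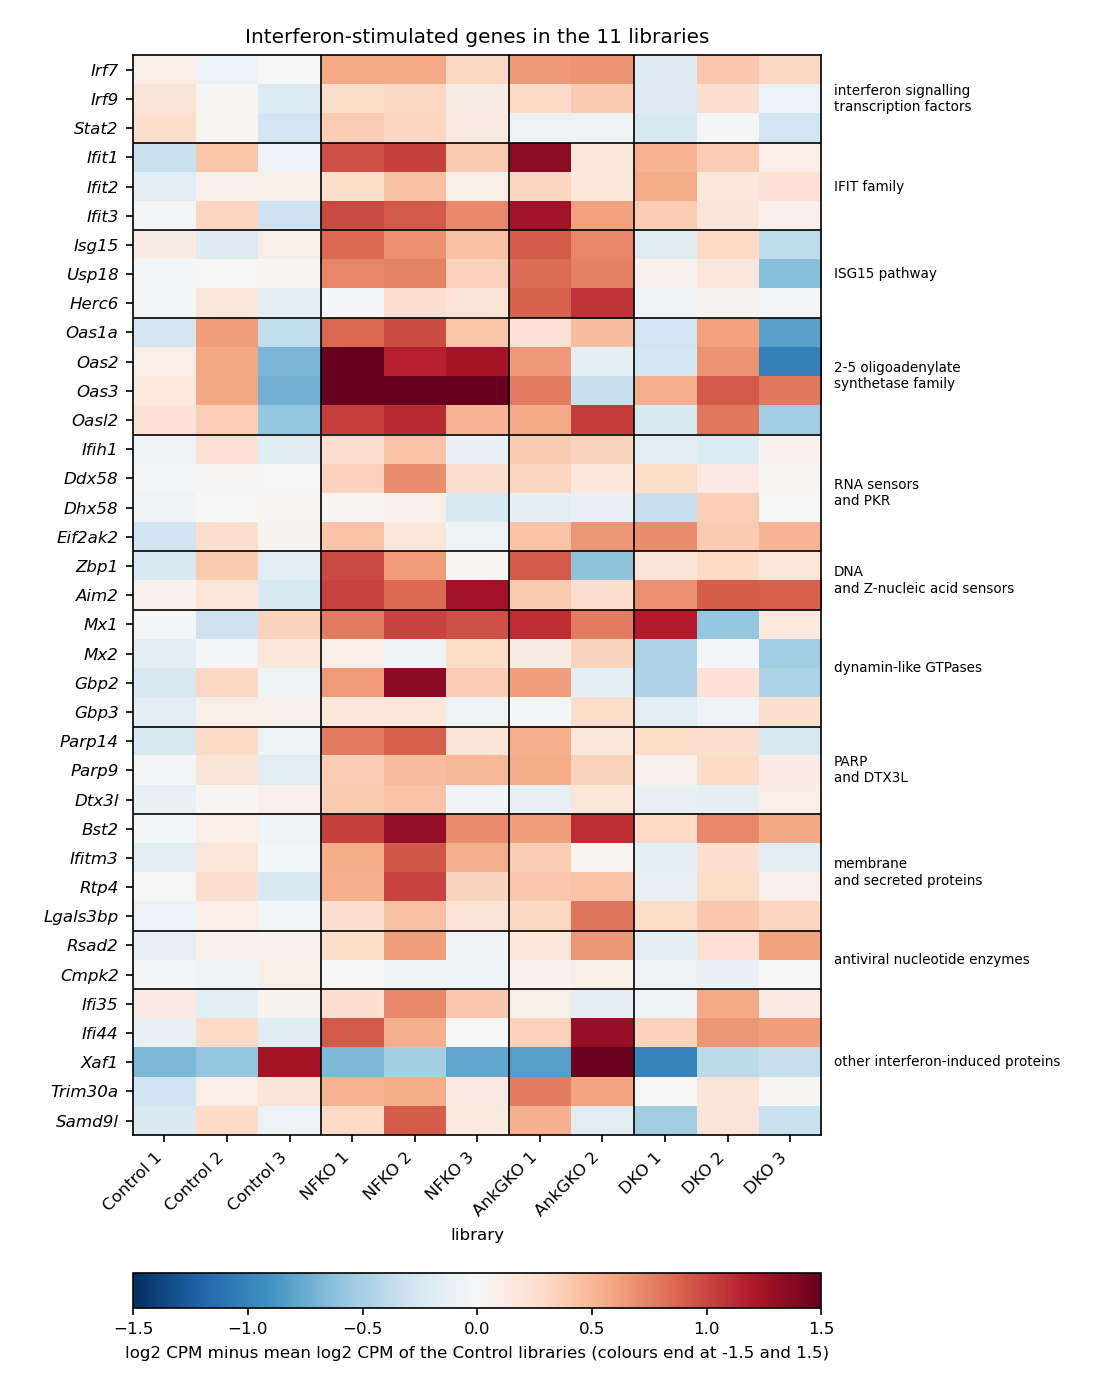
Colour gives log2 CPM minus the mean log2 CPM of the Control libraries for the 37 members (rows, ordered by role) in the 11 libraries (columns). Red prevails in the NFKO and AnkGKO columns, whose median deviations lie between 0.26 and 0.64, while the DKO columns lie between -0.08 and 0.24.

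Over all members, the median deviation from the Control mean on the log2 scale was -0.04, 0.10 and -0.05 in the Control libraries. It was 0.53, 0.64 and 0.26 in NFKO, 0.40 and 0.34 in AnkGKO, and -0.08, 0.24 and 0.05 in DKO. Both single knockouts were thus above all Control libraries, and DKO 2 reached close to the lowest NFKO library. Summed over the members, the Control libraries had 256 ± 10.1 CPM and the DKO libraries 267 ± 12.7 CPM (mean ± SD, n = 3 each). The sums were 316 ± 32.2 CPM for NFKO (n = 3) and 318 ± 13.7 CPM for AnkGKO (n = 2).

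In NFKO against Control, Aim2 and Bst2 rose and no member fell. A gene was called where its edgeR adjusted p was under 0.05 and its log2 fold change was 0.6 or more in either direction. Aim2 had a log2 fold change of 1.06 (SE 0.18, edgeR adjusted p = 0.0260) and Bst2 of 1.05 (SE 0.19, edgeR adjusted p = 0.0426). These 2 calls among 37 members stand beside 0.365% of all genes called. A further 17 members, 19 in all, were higher at an unadjusted p under 0.05 (51.4% of members, against 4.48% of all genes tested), and for 18 all NFKO libraries were above all Control libraries (48.6%, against 7.42% of all genes). The median log2 fold change of members was 0.47, against -0.0050 over all genes tested. Ifit3 had a log2 fold change of 0.86 (SE 0.19, edgeR adjusted p = 0.11), Ifitm3 of 0.68 (SE 0.16, edgeR adjusted p = 0.114), Oas3 of 2.03 (SE 0.55, edgeR adjusted p = 0.243) and Oas2 of 1.29 (SE 0.45, edgeR adjusted p = 0.467). In the role groups, 4 of 4 membrane and secreted proteins, 3 of 4 oligoadenylate synthetases, 2 of 3 IFIT genes and 2 of 3 ISG15 pathway genes were higher at an unadjusted p under 0.05, and 1 of 4 RNA sensors and 0 of 2 nucleotide enzymes were.

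The calls in NFKO were close to the threshold. Without any 1 of Control 1, Control 2, Control 3 or NFKO 1, neither gene was called. Without NFKO 2, DKO 2 or DKO 3 the call of Bst2 was lost (edgeR adjusted p = 0.159, 0.0516 and 0.0708), and without NFKO 3 that of Aim2 (edgeR adjusted p = 0.104). With replicate number as a block, which paired Control and NFKO libraries, Bst2 was called and Aim2 had an edgeR adjusted p of 0.0774. A blocked fit of only the NFKO and Control libraries called 6 members as higher, Aim2, Bst2, Gbp2, Ifit3, Ifitm3 and Oasl2. The share of all genes called in that fit is not given here. With only these libraries and no block, or with granule cell markers as a covariate, no member was called. In the 12 alternative fits other than those without 1 library, log2 fold changes were 1.00 to 1.33 for Aim2 and 0.93 to 1.14 for Bst2. Over all 11 fits without 1 library, the median of the members stayed between 0.43 and 0.58.

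**Figure D3:**
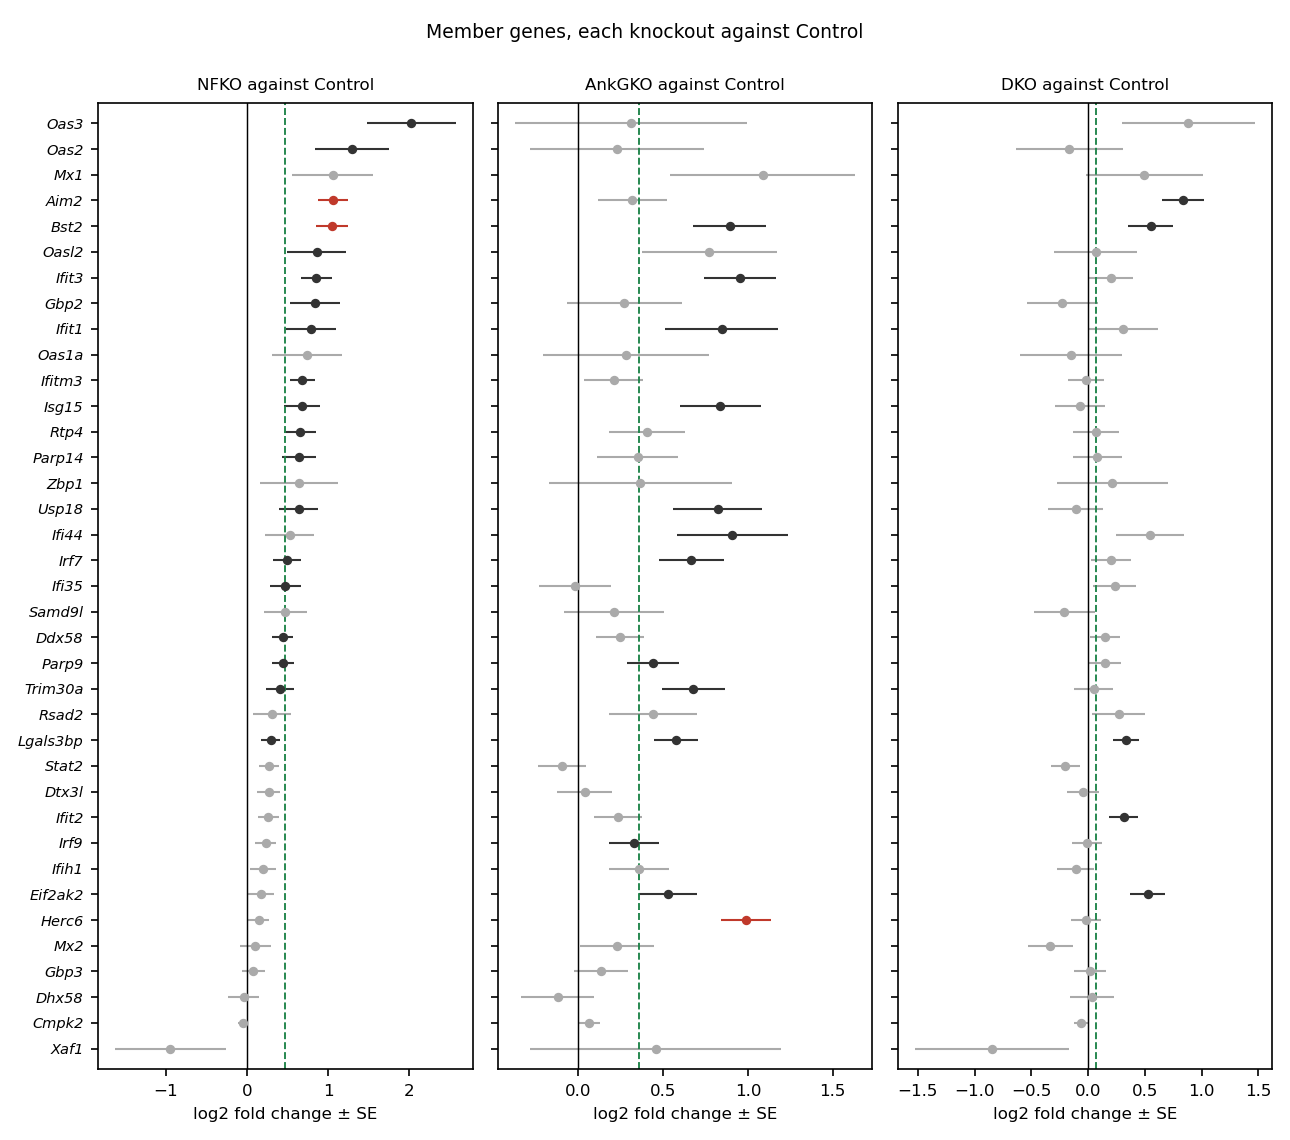
Log2 fold change with its standard error for the 37 members in each knockout against Control, ordered by the NFKO value (red for called genes, black for an unadjusted p under 0.05, grey for the rest, dashed green for the median). The medians were 0.47 in NFKO, 0.36 in AnkGKO and 0.07 in DKO, and the horizontal scales differ between panels.

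In AnkGKO against Control, Herc6 rose and no member fell. Herc6 had a log2 fold change of 0.99 (SE 0.15, edgeR adjusted p = 0.0142), and this 1 call of 37 stands beside 0.165% of all genes. An unadjusted p under 0.05 with a higher level was found for 13 members (35.1%, against 3.21% of all genes), among them all 3 of the ISG15 pathway. In 20 members both AnkGKO libraries were above all Control libraries (54.1%, against 11.7% of all genes). The median log2 fold change was 0.36, with Ifit3 at 0.96 (SE 0.21, edgeR adjusted p = 0.156), Bst2 at 0.89 (SE 0.21, edgeR adjusted p = 0.219), Isg15 at 0.84 (SE 0.24, edgeR adjusted p = 0.411) and Lgals3bp at 0.58 (SE 0.13, edgeR adjusted p = 0.156). Without Control 1, Control 3, AnkGKO 1 or AnkGKO 2, Herc6 had an edgeR adjusted p of 0.092, 0.0941, 0.0707 and 0.197, respectively. It was 0.0761 with only the AnkGKO and Control libraries in the fit and 0.12 with granule cell markers as a covariate. Over the 11 alternative fits other than those without 1 library, the log2 fold change of Herc6 was 0.92 to 1.14. Without AnkGKO 1 another member, Lgals3bp, was called instead. Leaving out Control 2 moved the median to 0.54.

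In DKO against Control, edgeR called no member, beside 0.0228% of all genes. Aim2, Bst2, Ifit2, Eif2ak2 and Lgals3bp were higher at an unadjusted p under 0.05 (13.5% of members, against 4.04% of all genes), and DESeq2 called Aim2. Aim2 had a log2 fold change of 0.84 (SE 0.18, edgeR adjusted p = 0.427), Bst2 of 0.55 (SE 0.20, edgeR adjusted p = 0.608) and Eif2ak2 of 0.52 (SE 0.16, edgeR adjusted p = 0.562). In 7 members all DKO libraries were above all Control libraries (18.9%, against 7.65% of all genes). The median was 0.07. Isg15, Usp18 and Herc6, the ISG15 pathway, had log2 fold changes between -0.11 and -0.02 in DKO.

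The 3 comparisons share the Control libraries, so their values are not independent. Set side by side, Ifit3 had log2 fold changes of 0.86 in NFKO, 0.96 in AnkGKO and 0.20 in DKO. Isg15 had 0.68, 0.84 and -0.07, and Irf7 had 0.49, 0.67 and 0.20. Aim2 had 1.06, 0.32 and 0.84, and Eif2ak2 had 0.17, 0.53 and 0.52.

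Between the single knockouts, Herc6 was lower in NFKO than in AnkGKO, with a log2 fold change of -0.84 (edgeR adjusted p = 0.0266), the only call of 37 members beside 0.404% of all genes. This call was lost without any 1 of the 5 NFKO and AnkGKO libraries (edgeR adjusted p between 0.0581 and 0.31) and with replicate number as a block (edgeR adjusted p = 0.053). It was also lost with granule cell, microglia or fibroblast markers as a covariate (edgeR adjusted p = 0.149, 0.0684 and 0.0749) and with only the 2 groups in the fit (0.108). Over the 11 alternative fits other than those without 1 library, the log2 fold change of Herc6 was -0.93 to -0.76. The median over members was 0.0013, and 19 members had a positive and 18 a negative log2 fold change. Aim2 had a log2 fold change of 0.74 (edgeR adjusted p = 0.251) and Oas3 of 1.71 (edgeR adjusted p = 0.452).

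In DKO against NFKO, edgeR called no member, beside 0.615% of all genes. An unadjusted p under 0.05 with a lower level in DKO was found for 14 members (37.8%, against 8.29% of all genes), with 1 member, Eif2ak2, higher. DESeq2 called 5 members as lower, Gbp2, Ifit3, Ifitm3, Isg15 and Oas2. The share of all genes that DESeq2 called is not given here. In 10 members all DKO libraries were below all NFKO libraries (27%, against 10% of all genes), and the median log2 fold change was -0.35. Ifitm3 had the smallest edgeR adjusted p of the members, 0.0693, at a log2 fold change of -0.70 (SE 0.16). It was called without DKO 2, the DKO library with the highest Ifitm3 level (edgeR adjusted p = 0.0351). All 5 meningeal fibroblast and all 5 border macrophage markers had negative log2 fold changes in the same comparison, with none called. With the fibroblast markers as a covariate the members' median was -0.18 and the log2 fold change of Ifitm3 was -0.28 (edgeR adjusted p = 0.462).

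In DKO against AnkGKO, Herc6 was called as lower with a log2 fold change of -1.01 (edgeR adjusted p = 0.0156), 1 of 37 members beside 0.171% of all genes. The log2 fold change was negative for 32 of 37 members, with a median of -0.34. The call was lost without AnkGKO 1, AnkGKO 2, DKO 1 or DKO 3 (edgeR adjusted p = 0.0676, 0.192, 0.066 and 0.0994). It was also lost with Xist (edgeR adjusted p = 0.129) or granule cell markers (0.0536) as a covariate and with only the DKO and AnkGKO libraries in the fit (0.103). Over the 11 alternative fits other than those without 1 library, the log2 fold change of Herc6 was -1.20 to -0.99.

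The interaction, DKO minus NFKO minus AnkGKO plus Control on the log2 scale, asks whether the double knockout differs from the sum of the single ones. It was negative for 36 of 37 members, with a median of -0.89, against 0.01 over all genes tested. Ifit3 (-1.61, SE 0.29, edgeR adjusted p = 0.0275) and Herc6 (-1.15, SE 0.20, edgeR adjusted p = 0.0231) were called, 2 of 37 members beside 0.53% of all genes, and 22 were negative at an unadjusted p under 0.05 (59.5%, against 5.63% of all genes). Isg15 had -1.58 (SE 0.32, edgeR adjusted p = 0.0635) and Bst2 -1.39 (SE 0.29, edgeR adjusted p = 0.068). As a level, Ifit3 in DKO at 5.56 ± 0.60 CPM (SD, n = 3) lay near Control at 4.82 ± 1.08 CPM (SD, n = 3) and not above the single knockouts at 8.76 ± 0.840 (SD, n = 3) and 9.37 ± 2.92 CPM (SD, n = 2). Neither gene was called without Control 1, Control 3, NFKO 2, AnkGKO 1 or DKO 3, Ifit3 alone was lost without NFKO 1 and Herc6 alone without AnkGKO 2 or DKO 1. Without NFKO 3 or DKO 2, respectively, Herc6 and Ifit3 had edgeR adjusted p of 0.0565 and 0.0592. Neither was called with Xist as a covariate (edgeR adjusted p = 0.292 for Herc6 and 0.366 for Ifit3), with microglia markers (0.0596 and 0.0745), with meningeal fibroblast markers (0.0808 and 0.117), or without the libraries numbered 1 of Control and NFKO (0.0915 and 0.174). Over the 10 alternative fits other than those without 1 library, the interaction was -1.48 to -1.08 for Herc6 and -2.07 to -1.40 for Ifit3. With granule cell markers Ifit3 was called and Herc6 was not (edgeR adjusted p = 0.0502). Xist was low in all libraries of both single knockouts and above 28 CPM in DKO and in 2 of 3 Control libraries, so that sex and this interaction largely cannot be told apart.

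**Figure D4:**
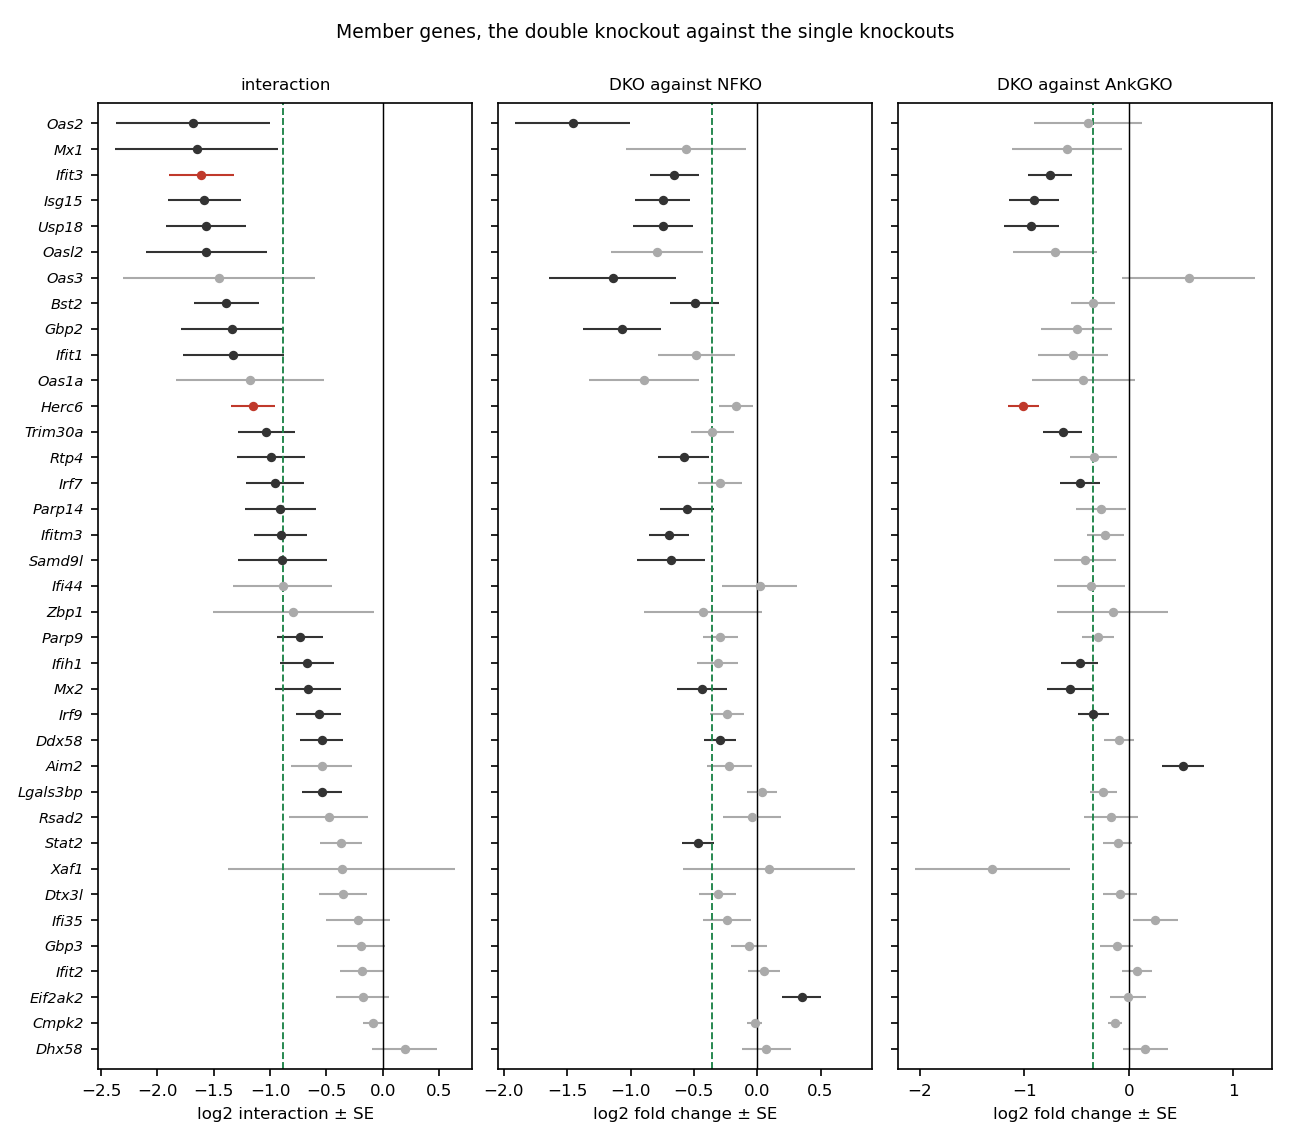
The interaction of both knockouts and the log2 fold changes of DKO against each single knockout for the 37 members, with standard errors, ordered by the interaction (colours and dashed median line as in the plot against Control). The medians were -0.89, -0.35 and -0.34, and only Dhx58 had a positive interaction. Horizontal scales differ between panels.

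Members whose promoter held the response element pattern, as in the sequences above, had a median log2 fold change of 0.67 in NFKO, 0.56 in AnkGKO and 0.14 in DKO (12 members). The 24 members without it had medians of 0.37, 0.32 and 0.03. For the interaction, the medians were -1.36 and -0.67. Aim2 and Herc6 held no match, while Bst2 and Ifit3 did. These medians are a description of the members and were not tested.

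Genes upstream of the members were measured from lists of the pathway. Of 16 listed interferon ligands 14 were rows, and none reached 3 reads in any library or was tested. None of 5 interferon receptors tested, 9 kinases and transcription factors, 12 sensors and adaptors, and 9 negative regulators was called in any knockout against Control by edgeR. Ifnar2, a chain of the type I receptor, measured 19.4, 21.7 and 20.3 CPM in Control, against 22.2, 24.8 and 23.1 CPM in NFKO, with a log2 fold change of 0.19 (edgeR adjusted p = 0.645). Ifnar1, the other chain, ranged from 55.6 to 67.2 CPM, Jak1 from 243 to 304 CPM, and Adar, an RNA editing enzyme that limits RNA sensing, from 222 to 245 CPM. Tlr3, a receptor for double-stranded RNA, was at 29.2, 29.1 and 30.2 CPM in Control, 39.6, 34.6 and 33.9 CPM in NFKO, 31.3 and 32.9 CPM in AnkGKO, and 29.2, 29.8 and 27.6 CPM in DKO, without overlap between NFKO and any other group (log2 fold change 0.29 against Control, edgeR adjusted p = 0.195). Irf1 had a log2 fold change of 0.49 in NFKO (edgeR adjusted p = 0.679).

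Of 53 further interferon-induced genes outside the members, 43 were tested and Ube2l6 rose in NFKO. Ube2l6, the enzyme that passes ISG15 to its ligases, was at 3.98, 5.38 and 4.55 CPM in Control, 8.91, 9.86 and 9.03 CPM in NFKO, 5.37 and 6.17 CPM in AnkGKO, and 4.74, 5.30 and 6.97 CPM in DKO (log2 fold change 1.00 in NFKO, SE 0.16, edgeR adjusted p = 0.0183). The call of Ube2l6 was lost without Control 1, Control 3 or any 1 of the NFKO libraries (edgeR adjusted p between 0.0642 and 0.109). Counting these, 8 of the alternative fits lost it, and the highest adjusted p over the edgeR and DESeq2 fits was 0.257. Of the 43 genes, 16 were higher and 2 lower in NFKO at an unadjusted p under 0.05. These are 37.2% and 4.65%, against 4.48% and 3.22% of all genes tested. In AnkGKO 6 were higher (14%, against 3.21% of all genes), and in DKO 1 was lower (2.33%, against 3.74%). The 43 genes had median log2 fold changes of 0.31, 0.14 and 0.07 in NFKO, AnkGKO and DKO. Over all genes tested the medians were -0.0050, -0.0050 and -0.00062. Isg20, an exonuclease, was at 0.988, 1.19 and 1.14 CPM in Control, 2.35, 2.52 and 1.99 CPM in NFKO, 1.59 and 2.56 CPM in AnkGKO, and 1.17, 0.957 and 1.15 CPM in DKO. Both single knockouts lay above Control and DKO for this gene, and it fell in DKO against NFKO with a log2 fold change of -1.07 (edgeR adjusted p = 0.0472).

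Other cell types and sex moved with the member levels in part. The 8 microglia markers summed to 344 to 423 CPM in Control, 409 to 429 in NFKO, 470 to 482 in AnkGKO and 383 to 499 in DKO, and none of them was called against Control. The 5 border macrophage markers summed to 7.05 to 17.1 CPM in Control and 15.8 to 25.9 in NFKO, against 7.02 to 15.1 in AnkGKO and 4.22 to 12.9 in DKO. The 5 meningeal fibroblast markers summed to 134 to 378 CPM in Control, 446 to 1397 in NFKO, 142 to 351 in AnkGKO and 95.1 to 324 in DKO, so NFKO overlapped no other group, and all 5 had a positive log2 fold change in NFKO with none called. The 5 T cell markers summed to 0.238 to 0.403 CPM in Control and 0.650 to 0.708 in NFKO. Cd3d, a chain of the T cell receptor complex, was at 0 in Control 3, NFKO 2, AnkGKO 2 and DKO 1. The 5 astrocyte markers summed to 7206 to 7487 CPM in AnkGKO and to 4770 to 6299 CPM in the other groups, and 3 of the 5 were higher in AnkGKO than in Control at an unadjusted p under 0.05. Endothelial markers summed to 231 to 310 CPM and B cell markers to 0.583 to 1.91 CPM over all libraries. Granule cell markers ranged from 134 to 797 CPM in Control and 140 to 677 CPM in NFKO, against 119 to 158 CPM in AnkGKO and DKO. The 4 neutrophil markers tested reached 86.6 CPM in DKO 2 and were between 4.13 and 26.3 CPM elsewhere. The part of astrocytes, border macrophages, T cells and neutrophils in the member levels was not tested.

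**Figure D5:**
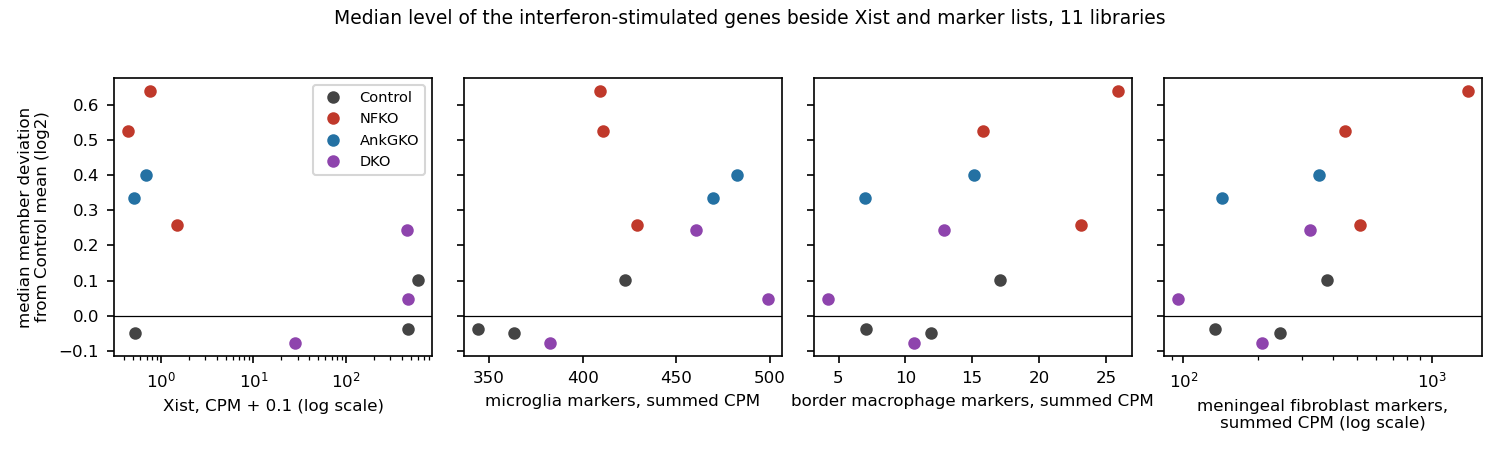
Median deviation of the 37 members from the Control mean (log2, vertical axis) in each of the 11 libraries, beside Xist CPM plus 0.1, microglia, border macrophage and meningeal fibroblast markers in summed CPM (log axes for Xist and fibroblast markers). The NFKO libraries lie at 446 CPM or more of fibroblast markers and 15.8 CPM or more of macrophage markers, and Control 3 has low Xist with a median deviation of -0.05.

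Fits with these values as covariates gave the following. With the meningeal fibroblast markers as a covariate, the members' median in NFKO was 0.29 and no member was called, while Aim2 had a log2 fold change of 1.09 (edgeR adjusted p = 0.0991) and Bst2 of 0.93 (edgeR adjusted p = 0.244). With microglia markers the median was 0.47, and with Xist 0.53, again with no member called. In AnkGKO the medians with the same 3 covariates were 0.40, 0.30 and 0.53, and Herc6 was called with the fibroblast covariate only. Control 3, whose Xist level matched those of the single knockouts, had a median member deviation of -0.05, against 0.26 to 0.64 in the NFKO and AnkGKO libraries. Control 3 is 1 library and is part of the Control mean from which the deviations are taken. The part of sex in the member levels was not tested by it. Each covariate takes up 1 of few degrees of freedom.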

How the data were processed

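Polyadenylated RNA of 11 libraries was sequenced in single-end reads of 100 bases per the labels, while the study's methods describe paired-end reads. Per the submitters' processing notes, the authors used FastQC 0.12.1, Trimmomatic 0.39, STAR 2.7.11a, R 4.3.2 and DESeq2 1.40.2, with GRCm39 as the genome. The deposited counts per gene are whole numbers of uniquely placed reads, and the study's methods name STAR's gene counting as their source. The summary lines are labelled no_feature, ambiguous, too_low_aQual, not_aligned and alignment_not_unique, and the counting tool was not checked. The library kit keeps strand, and whether the counting used it is not given in the sources used here. The 5 summary lines, which name no gene, held 42.7 to 43.8% of reads and were left out of totals and tests. A second deposited table of normalised counts was not used.

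Counts of all genes with at least 10 reads in total were fitted with edgeR 4.0.16 (R 4.3.3, limma 3.58.1) by TMM scaling and the quasi-likelihood test, with genotype in 4 groups and all 11 libraries sharing the dispersion. P-values were adjusted by the Benjamini-Hochberg method over all 17557 genes tested, and a gene was called where the adjusted p was under 0.05 and the log2 fold change was 0.6 or more in either direction. DESeq2 1.42.0 with a local dispersion fit, the tool of the study, was an alternative. Values in every library are given for members called in any comparison, for the 12 members with the smallest p in NFKO against Control and for the most abundant member of each role group. From the pathway lists, called genes are named, and otherwise the genes of smallest p and highest level. Isg20, which was called in DKO against NFKO, was named after its values were seen. The members, role groups, pathway genes and marker lists were chosen with earlier results of these data known. The other alternatives were DESeq2 size factors in edgeR, both other low-count filters, only the groups compared, covariates, each library left out, the libraries numbered 1 of Control and NFKO left out, and other thresholds. The blocked fit of only NFKO and Control and the meningeal fibroblast covariate were chosen after seeing the data.

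Deviations from the group means correlated between Control and NFKO libraries of the same number (Pearson's r over genes 0.567, 0.474 and 0.257), so the numbers were taken to pair these groups. Against Control, AnkGKO (r = -0.385 and -0.472) and DKO (r = -0.105, 0.321 and -0.0388) did not show this. Between NFKO and DKO libraries of the same number r was 0.0556, 0.454 and 0.274, so a pairing of DKO was not settled. No libraries differed by less than sampling noise. The scripts were tested on simulated data. Promoters and shared 50-base words were read from GRCm39 with GENCODE vM39.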

Additional observations from a re-analysis of the deposited data

Results flagged for a closer look

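The interaction of both knockouts was tested directly and passed the threshold for 2 members. The interaction was -1.15 for Herc6 (SE 0.20, edgeR adjusted p = 0.0231) and -1.61 for Ifit3 (SE 0.29, edgeR adjusted p = 0.0275). Neither was called with Xist, microglia or meningeal fibroblast markers as a covariate, or without the libraries numbered 1 of Control and NFKO (edgeR adjusted p between 0.0596 and 0.366). Over the 10 alternative fits other than those without 1 library, Herc6 lay between -1.48 and -1.08 and Ifit3 between -2.07 and -1.40. Xist, low in both single knockouts, moved with the same contrast of groups. Outlier tests were not run, because no group has more than 3 libraries.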

How the results depend on the processing

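With DESeq2 the members called were 4 in NFKO against Control, 4 in AnkGKO against Control, 1 in DKO against Control, 2 in NFKO against AnkGKO, 5 in DKO against NFKO, 3 in DKO against AnkGKO and 10 in the interaction. The shares of all genes given above are those of the main edgeR fit and are no background for counts under other settings. With only the groups compared in the fit, 0 were called in each of the 4 pairwise comparisons in which edgeR had called any. The Xist covariate gave 0 calls in NFKO and in AnkGKO against Control, in DKO against AnkGKO and in the interaction. The granule cell covariate gave 0 in NFKO and AnkGKO against Control, NFKO against AnkGKO and DKO against AnkGKO, and 1 in the interaction. The microglia covariate, and leaving out the libraries numbered 1 of Control and NFKO, gave 0 in NFKO and AnkGKO against Control, NFKO against AnkGKO and the interaction. The meningeal fibroblast covariate gave 0 in NFKO against Control, NFKO against AnkGKO and the interaction. With the required log2 fold change raised to 1, 0 members were called in AnkGKO against Control and in NFKO against AnkGKO. With replicate number as a block, the calls were 1 in NFKO against Control and 0 in NFKO against AnkGKO, and the blocked fit of the paired NFKO and Control libraries alone gave 6; the block changed the count in no other comparison. Without 1 library, the calls were 0 to 2 in NFKO against Control, 0 to 1 in AnkGKO against Control, NFKO against AnkGKO, DKO against NFKO and DKO against AnkGKO, and 0 to 2 in the interaction. Median log2 fold changes moved in NFKO against Control to 0.29 with the fibroblast covariate, in AnkGKO against Control to 0.53 with Xist and to between 0.30 and 0.54 without 1 library, and in DKO against NFKO to -0.51 with Xist and -0.18 with the fibroblast covariate. The causes were not tested, except that fits with fewer libraries or more terms have fewer degrees of freedom. No called value reversed. Members near the floor, such as Oas3, are limited by depth.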
